A study of Rattus norvegicus with 6 samples.

Results

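The genes described here are 42 genes of T cell identity and T cell receptor signalling, read in bulk RNA-seq of total lung from Sprague-Dawley rats. They were chosen by symbol, with earlier results of these data known. All 42 have a row among the 19828 entries of the deposited table. Of these, 41 passed the filter on low values and were tested, among 15386 genes tested in all. The 2 groups were Ahr-KO rats and wild type (WT) rats, with 3 libraries each, and every sample of both groups had received Sugen and hypoxia (SuHx) and was labelled day 56. The Ahr gene codes for a transcription factor that small ligands activate, the aryl hydrocarbon receptor, and Sugen is a VEGF receptor inhibitor that, with low oxygen, gives a rat model of pulmonary arterial hypertension. Both groups carry the treatment, so the comparison asks how the Ahr genotype was related to T cell transcripts in the treated lung. How Ahr was edited, and how old and of which sex the animals were, is not analysed here.

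The deposited values are normalised, estimated read counts per gene symbol, and the libraries are numbered 0, 1 and 2 within each group as in the table. The step between the values put the depth at about 14.2 to 23.6 M (mega) reads in the Ahr-KO libraries and 12.9 to 21.9 M in the WT libraries, with library 2 the shallowest of each group, and 1 read was worth a value of 0.806 to 1.40. Cyp1a1 and Ahrr, classical targets of the receptor, had almost no reads in Ahr-KO lungs. Cyp1a1 had 10.5, 0.826 and 1.36 in Ahr-KO libraries 0, 1 and 2, against 27085, 23512 and 37694 in WT libraries 0, 1 and 2. Ahrr had 4.03, 5.79 and 5.46 in the Ahr-KO libraries and 1466, 1644 and 2363 in the WT libraries. The Ahr transcript itself had 2399, 3923 and 3575 in the Ahr-KO libraries and 2939.96, 2860.4 and 3395 in the WT libraries and did not pass the test (adjusted p = 0.81 by limma), and a value over the whole gene does not check an edit within it.

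T cells recognise antigen through a receptor whose own chains have no enzyme activity. The CD3 chains and CD247 carry the signal: LCK, held at the CD4 or CD8 co-receptor, phosphorylates them, ZAP70 binds and phosphorylates the scaffolds LAT and SLP-76 (Lcp2), and RASGRP1 and protein kinase C theta (Prkcq) act downstream. In the lung, T cells lie in the airway wall, around vessels and in lymphoid clusters beside the bronchi, and perivascular T cells are a known feature of pulmonary hypertension.

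Most of these T cell genes were lower in Ahr-KO lungs. Of the 41 tested, 25 fell and 0 rose (limma-trend on log2(value + 1), Benjamini-Hochberg adjusted p under 0.05 over all genes). Over all genes 10.8% were called, 6.26% lower and 4.5% higher (963 and 692 genes; 1314 and 449 when library totals were made equal). The 25 genes that fell were between 1.6-fold (Fyn) and 5.85-fold (Tigit) lower, on the log2(value + 1) scale taken back to linear, which understates the change of low genes. Tigit met the filter through its WT values alone, so a fall was the only call open to it. The next largest fall was that of Trat1, at 3.94-fold. At an unadjusted p under 0.05, 31 of the 41 were lower and 0 higher, and limma-voom called 23 lower and 0 higher. Of the 25, 19 kept their call with quantile normalisation and 19 without the trend. Only 13 kept it under every alternative setting that used all 6 libraries. The median log2 fold change of the 41 was -1.12, against 0.01 over all tested genes, and 37 of the 41 were below 0. All 3 Ahr-KO values lay below all 3 WT values for 31 of the 41, where 17.4% of all tested genes did so. In whole lung tissue, fewer T cells and less RNA of these genes per cell cannot be told apart.

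**Figure D1:**
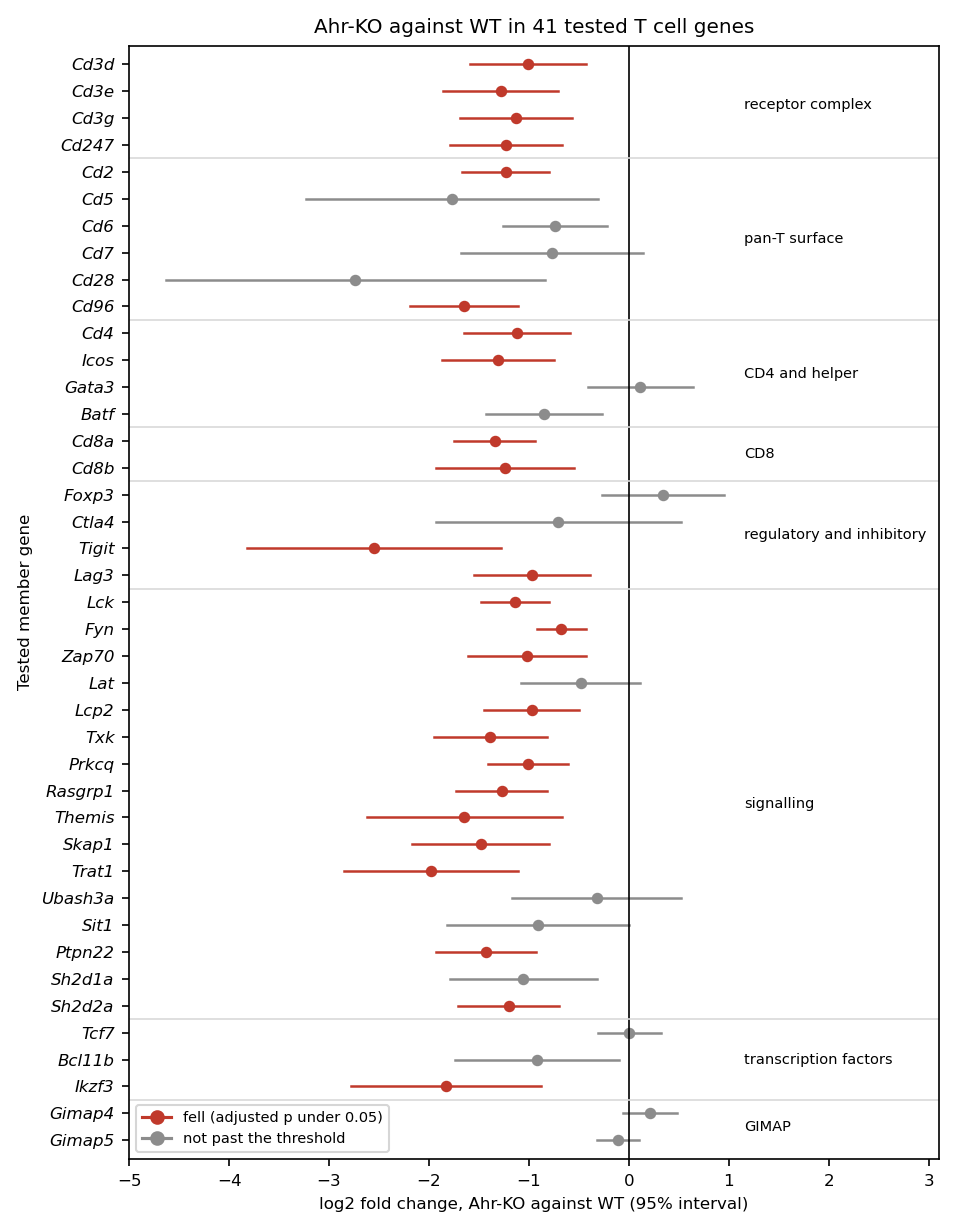
Log2 fold changes of the 41 tested T cell genes, Ahr-KO against WT, with 95% intervals on the horizontal axis and genes grouped by class down the page. Red genes fell (adjusted p under 0.05) and grey genes did not pass; the 25 red intervals all lie below 0, and Foxp3, Gata3, Tcf7 and both GIMAP genes have intervals that cross 0.

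The count of genes that fell depended on single libraries. Leaving out Ahr-KO library 1 gave 8, Ahr-KO library 2 gave 6 and WT library 0 gave 7, against 18 to 23 for each of the other libraries, and 0 rose in each of these 6 fits. The 6 genes whose fall held in every such fit were Cd2, Cd96, Cd8a, Lck, Rasgrp1 and Ptpn22.

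All 4 genes of the receptor complex fell. Cd3e, a signalling chain of the complex, had 46.7, 37.2 and 30.01 in Ahr-KO libraries 0, 1 and 2, against 107, 95.3 and 76.9 in WT libraries 0, 1 and 2. The highest Ahr-KO value was well below the lowest WT value, and the log2 fold change was -1.28 ± 0.25 (SE; adjusted p = 0.019). Cd3g had 44.3, 48.8 and 36.8 in the Ahr-KO libraries and 116, 73.9 and 101 in the WT libraries, a log2 fold change of -1.13 ± 0.24 (adjusted p = 0.027). Cd3d had 49.2, 38.8 and 36.8 in the Ahr-KO libraries and 109, 68.2 and 79.7 in the WT libraries. Its log2 fold change was -1.01 ± 0.25 (adjusted p = 0.043), and its call was lost without any 1 library (highest adjusted p = 0.14) and after quantile normalisation (adjusted p = 0.11), without the trend (0.051), without the filter (0.053) and with limma-voom (0.051).

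Cd247 encodes the zeta chain, which NK cells use as well. It had 129, 95.9 and 66.8 in the Ahr-KO libraries, against 241, 207 and 218 in the WT libraries, with a log2 fold change of -1.23 ± 0.24 (adjusted p = 0.02). The WT values lay close together and the Ahr-KO values were more spread, without overlap between the groups. The calls of Cd3e, Cd3g and Cd247 each held in 2 of the 6 fits that left out 1 library (highest adjusted p = 0.074, 0.1 and 0.068), and Cd3g did not pass after quantile normalisation (adjusted p = 0.063). None of the 10 symbols looked for as constant regions of the receptor chains, such as Trac and Trbc1, had a row, so the receptor chains themselves are not analysed here.

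**Figure D2:**
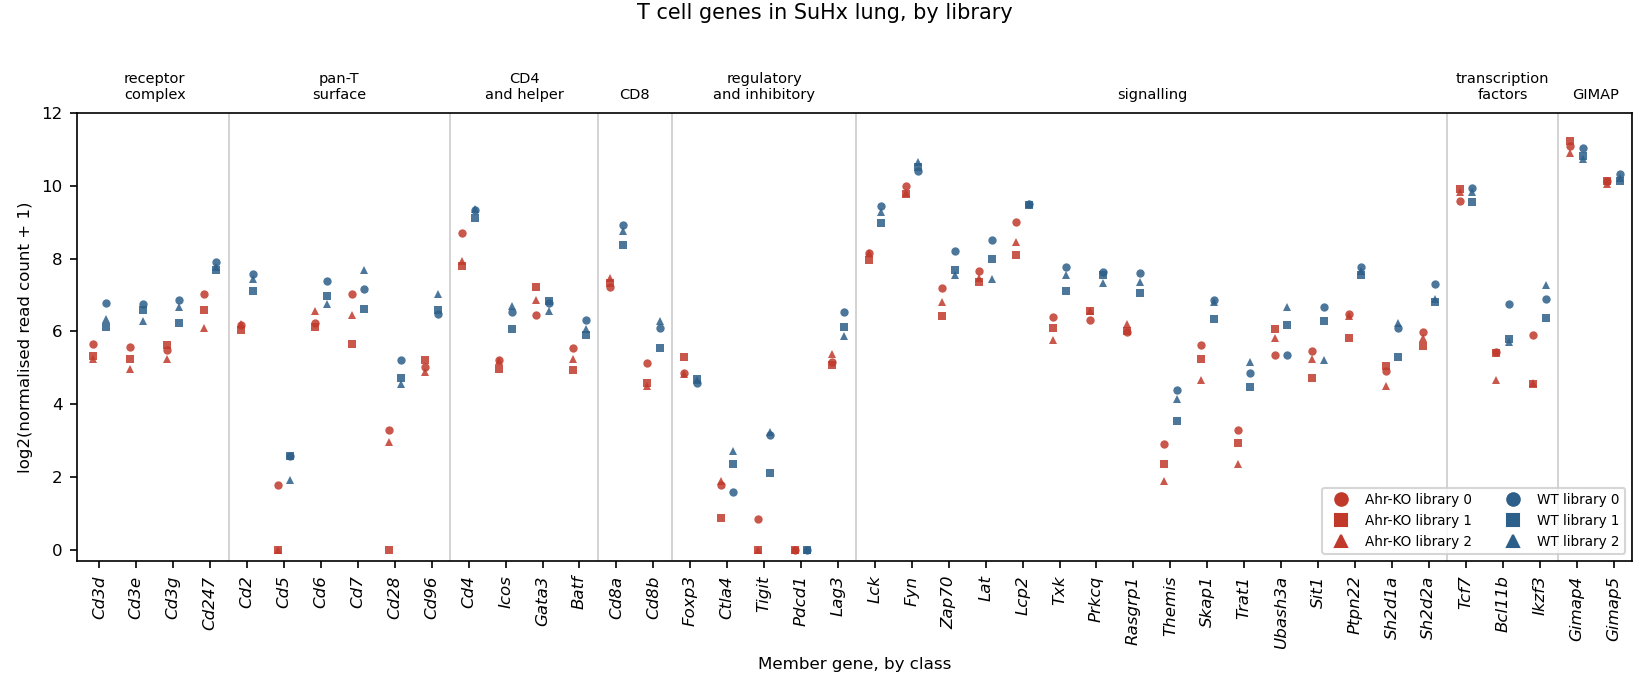
Values of the 42 T cell genes by library, as log2(normalised read count + 1) on the vertical axis, with Ahr-KO libraries in red left of WT libraries in blue and the library number by symbol shape. The groups are apart for most genes and overlap for Tcf7, Gata3, Gimap4 and Gimap5 among others, while Pdcd1 is listed at 0 in all 6 libraries.

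Both CD8 genes fell. Cd8a, the alpha chain of the co-receptor of cytotoxic T cells, had 147, 159.5 and 177 in Ahr-KO libraries 0, 1 and 2, against 486, 330.1 and 431 in WT libraries 0, 1 and 2. Every Ahr-KO value was well below the lowest WT value, and the log2 fold change was -1.34 ± 0.17 (adjusted p = 0.006, highest without 1 library 0.033). Cd8b, the beta chain that marks conventional CD8 T cells, had 33.8, 23.1 and 21.8 in the Ahr-KO libraries and 68, 46 and 76.9 in the WT libraries. Its log2 fold change was -1.24 ± 0.30 (adjusted p = 0.038), not past the threshold without Ahr-KO library 1 or 2 or WT library 0 or 2 (highest adjusted p = 0.13) or after quantile normalisation (adjusted p = 0.078).

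Among the 4 CD4 and helper genes, Cd4 and Icos fell. Cd4 is the co-receptor of helper T cells and in the rat is also carried by macrophages. It had 417, 223 and 241 in the Ahr-KO libraries, against 639, 552 and 657 in the WT libraries. Ahr-KO library 0 was the highest of its group, though still below every WT library, and the log2 fold change was -1.12 ± 0.23 (adjusted p = 0.024; up to 0.1 without Ahr-KO library 1 or 2 or WT library 0, and 0.063 without the trend). The ratio of Cd4 to Cd8a within a library was 2.83, 1.4 and 1.36 in the Ahr-KO libraries and 1.31, 1.67 and 1.53 in the WT libraries, so it was high in Ahr-KO library 0 and the groups overlapped.

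Icos, the inducible costimulator of activated helper cells, had 36.3, 30.6 and 35.5 in Ahr-KO and 91, 66.5 and 104 in WT libraries, a log2 fold change of -1.31 ± 0.24 (adjusted p = 0.017). Icos lost its call without the same 3 libraries as Cd4 (highest adjusted p = 0.066). Batf, an AP-1 family factor of effector T cells, had 45.9, 29.8 and 36.8 in Ahr-KO libraries and 79, 59.1 and 65.7 in WT libraries. Its groups did not overlap but it did not pass (log2 -0.85, adjusted p = 0.069). Gata3, the factor of type 2 helper cells and type 2 innate lymphoid cells, had 87, 147 and 115 in Ahr-KO and 108, 114 and 93.7 in WT libraries. The WT values lay within the range of the Ahr-KO values (log2 0.11, 95% interval -0.41 to 0.64, adjusted p = 0.79), and the sign turned to -0.07 without Ahr-KO library 1.

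Of the 6 pan-T surface genes, Cd2 and Cd96 fell. Cd2, an adhesion receptor that in rodents binds CD48, had 71.7, 65.3 and 72.3 in the Ahr-KO libraries, against 189, 138 and 173 in the WT libraries. The Ahr-KO values were within a narrow band below every WT value (log2 -1.23 ± 0.19, adjusted p = 0.0097). Cd96, a receptor for nectin family ligands shared by T and NK cells, had 31.4, 36.4 and 28.6 in Ahr-KO libraries and 89, 94.4 and 129 in WT libraries, a log2 fold change of -1.65 ± 0.23 (adjusted p = 0.0081). It was 3.14-fold lower.

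Cd28, the main costimulatory receptor of naive T cells, had 8.87, 0 and 6.82 in Ahr-KO libraries 0, 1 and 2, against 36, 25.5 and 22.4 in WT libraries 0, 1 and 2. It was listed at 0 in Ahr-KO library 1, and with this spread its log2 fold change of -2.74 ± 0.82 did not pass (adjusted p = 0.072). Cd5 and Cd6 encode scavenger-type receptors that temper receptor signalling. Cd6 had 74.1, 68.6 and 92.8 in Ahr-KO and 166, 125 and 108 in WT libraries, without overlap but not past the threshold (log2 -0.74, adjusted p = 0.076). Cd5 was near the level of single reads in both groups, at 2.42, 0 and 0 in Ahr-KO and 5, 4.93 and 2.8 in WT libraries (adjusted p = 0.11). Cd7, found on T and NK cells, had 131, 49.6 and 87.3 in Ahr-KO and 143, 96.9 and 206 in WT libraries, with overlap (log2 -0.77, adjusted p = 0.25).

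Of the 4 regulatory and inhibitory genes tested, 2 fell. Tigit and Lag3, receptors that restrain T and NK cells, were the 2. Lag3 had 34.7, 33.1 and 40.9 in the Ahr-KO libraries, against 92, 69 and 57.4 in the WT libraries (log2 -0.97 ± 0.25, adjusted p = 0.048). It was close to the threshold and held in 1 of the 6 fits without 1 library, the one without WT library 2 (highest adjusted p = 0.14), and it did not pass after quantile normalisation (adjusted p = 0.14) or without the filter (0.059). Tigit had 0.806, 0 and 0 in the Ahr-KO libraries, where it was listed at 0 in libraries 1 and 2, against 8, 3.28 and 8.39 in the WT libraries (adjusted p = 0.027). All these values amount to a few reads, and Tigit met the filter in 3 of the 6 fits without 1 library and passed the test in 1 of them. Its Ahr-KO values were all below the filter value of 1. Tigit was thus tested through its WT values alone, and only a fall could be called. Ctla4, a brake on CD28 costimulation, had 2.42, 0.826 and 2.73 in Ahr-KO and 2, 4.11 and 5.6 in WT libraries, too low to compare (adjusted p = 0.43). Pdcd1, which encodes PD-1, was listed at 0 in all 6 libraries and was not tested.

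Foxp3, the lineage factor of regulatory T cells, was the one gene of the 42 with all 3 Ahr-KO values above all 3 WT values, a pattern shown by 16.9% of all tested genes. It had 27.8, 38.2 and 27.4 in Ahr-KO libraries 0, 1 and 2, against 23, 24.8 and 24.5 in WT libraries 0, 1 and 2, and it did not pass the test (log2 0.34 ± 0.26, 95% interval -0.27 to 0.95, adjusted p = 0.44). Its values were not whole numbers of reads: only 1 of 6 was within 0.05 of a whole multiple of the step, against 6 of 6 for each of the other 41 genes, zeros counted as whole. In RefSeq's GRCr8 annotation the Foxp3 span overlaps those of Ccdc22, a widely expressed gene of endosomal sorting, and Ppp1r3f. Ccdc22 had 1094, 1042 and 1084 in Ahr-KO libraries and 826, 789 and 703 in WT libraries and rose (log2 0.48 ± 0.10, adjusted p = 0.022; lost without any 1 of the Ahr-KO libraries or WT library 1, highest adjusted p = 0.083). The sum of Foxp3 and Ccdc22 came to a whole number of reads in 6 of 6 libraries. In reads, Foxp3 came to 17.5 to 46.3 per library beside 502 to 1357 for Ccdc22. Since each gene is fractional and their sum whole, the level of Foxp3 and its direction are uncertain.

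Of the 16 signalling genes, 12 fell and none rose (13 lower and 0 higher at an unadjusted p under 0.05, and 11 lower and 0 higher with limma-voom). All 3 kinases nearest the receptor, Lck, Fyn and Zap70, fell. Lck, the kinase that starts the cascade, had 282, 250.4 and 285 in Ahr-KO libraries 0, 1 and 2, against 699, 504 and 616 in WT libraries 0, 1 and 2. Its groups were far apart (log2 -1.14 ± 0.15, adjusted p = 0.006, highest without 1 library 0.034). Fyn, a related kinase that many lung cells express as well, had 1020.3, 868 and 889 in Ahr-KO and 1356, 1466 and 1617 in WT libraries. Its log2 fold change of -0.68 ± 0.11 (adjusted p = 0.011) was the smallest among the genes that fell, and it was lost only without Ahr-KO library 2 among the 6 fits that left out 1 library (adjusted p = 0.055).

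Zap70, the kinase recruited by the phosphorylated receptor, had 146, 84.3 and 110.5 in the Ahr-KO libraries, against 296, 206 and 187 in the WT libraries. It passed narrowly (log2 -1.02 ± 0.26, adjusted p = 0.043), and did not pass after quantile normalisation (adjusted p = 0.067), without the trend (0.081), without the filter (0.051) or without Ahr-KO library 1 or 2 or WT library 0 or 1 (up to 0.13). Txk, a Tec family kinase of T and NK cells, had 83, 66.9 and 53.2 in Ahr-KO and 216, 136 and 185 in WT libraries (log2 -1.39 ± 0.25, adjusted p = 0.015). Prkcq, the theta isoform of protein kinase C, had 79, 94.2 and 94.1 in Ahr-KO and 199, 185 and 159 in WT libraries (log2 -1.01 ± 0.17, adjusted p = 0.013). For both kinases every Ahr-KO value lay below every WT value. Rasgrp1, the exchange factor that passes the signal to Ras, had 62.9, 63.6 and 72.3 in Ahr-KO libraries, against 193, 133 and 164 in WT libraries. Its Ahr-KO values lay within a narrow band, and the log2 fold change was -1.27 ± 0.20 (adjusted p = 0.011).

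The adaptors were lower to different degrees. Lcp2, which encodes SLP-76 and is expressed by myeloid cells and platelets too, had 511, 275 and 352 in Ahr-KO libraries, against 727, 711 and 727 in WT libraries (log2 -0.97 ± 0.21, adjusted p = 0.026). Skap1, an adaptor that links the receptor to integrin adhesion, had 48.4, 37.2 and 24.6 in Ahr-KO and 116, 79.7 and 111 in WT libraries (log2 -1.48 ± 0.30, adjusted p = 0.021). Sh2d2a, which encodes the LCK-binding adaptor TSAd, had 62.1, 47.1 and 55.9 in Ahr-KO and 158, 111 and 118 in WT libraries (log2 -1.20 ± 0.22, adjusted p = 0.016). None of these 3 adaptors had overlapping groups. Trat1, a transmembrane adaptor associated with the receptor, was low, at 8.87, 6.61 and 4.09 in Ahr-KO libraries against 28, 21.4 and 35 in WT libraries (log2 -1.98 ± 0.38, adjusted p = 0.018). Themis, known in mice for its part in thymocyte selection, was lower still, at 6.45, 4.13 and 2.73 in Ahr-KO and 19.99, 10.7 and 16.8 in WT libraries (log2 -1.65 ± 0.42, adjusted p = 0.047). Themis lost its call without any 1 library except Ahr-KO library 0, and with quantile normalisation (adjusted p = 0.075), limma-voom (0.063), a pseudocount of 0.1 (0.061) and the stricter filter (0.056). Among the other genes of the class, Txk, Skap1, Trat1 and Sh2d2a did not pass when Ahr-KO library 1, Ahr-KO library 2 or WT library 0 was left out (highest adjusted p = 0.065, 0.071, 0.068 and 0.066). Lcp2 did not pass without any 1 of these or WT library 1 (up to 0.1) or without the trend (adjusted p = 0.067), and Prkcq without Ahr-KO library 2 or WT library 0 (up to 0.053).

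Lat, the membrane scaffold, did not pass. It had 201, 162 and 177 in Ahr-KO libraries 0, 1 and 2, against 361, 253 and 173 in WT libraries 0, 1 and 2. WT library 2 lay within the range of the Ahr-KO libraries and WT library 0 far above it (log2 -0.48, 95% interval -1.08 to 0.11, adjusted p = 0.27). Sh2d1a, which encodes SAP, the adaptor of SLAM family receptors, had 29, 32.2 and 21.8 in Ahr-KO and 68, 38.6 and 74.1 in WT libraries (log2 -1.06, adjusted p = 0.073). Its groups did not overlap and it did not pass. Its span overlaps that of Tenm1 in RefSeq's GRCr8 annotation, and its values were whole multiples of the step in 6 of 6 libraries, unlike those of Foxp3.

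The genes that damp the signal were mixed. Ptpn22, a phosphatase that acts on LCK and ZAP70, had 87.8, 55.4 and 84.6 in the Ahr-KO libraries, against 219, 187 and 200.04 in the WT libraries, and fell (log2 -1.43 ± 0.22, adjusted p = 0.0098). Sit1, a transmembrane adaptor that recruits phosphatases, had 42.7, 25.6 and 36.8 in Ahr-KO and 99.96, 76.4 and 36.4 in WT libraries, with WT library 2 inside the Ahr-KO range (adjusted p = 0.18). Ubash3a, a suppressor of receptor signalling, had 39.5, 66.1 and 55.9 in Ahr-KO and 39.99, 71.4 and 101 in WT libraries, with wide overlap (log2 -0.32, 95% interval -1.16 to 0.52, adjusted p = 0.61).

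Among the 3 transcription factors, Ikzf3 alone fell. Ikzf3, which encodes Aiolos and is also high in B cells, had 58.8, 22.3 and 23.2 in Ahr-KO libraries, against 117, 82.1 and 154 in WT libraries (log2 -1.83 ± 0.41, adjusted p = 0.031). Without Ahr-KO library 1 or 2 or WT library 0 or 2 it did not pass (up to 0.12), nor without the trend (adjusted p = 0.067). Bcl11b, the factor that fixes T cell fate, had 41.9, 41.3 and 24.6 in Ahr-KO and 106, 54.2 and 51.8 in WT libraries, without overlap but not past the threshold (log2 -0.92, adjusted p = 0.14). Tcf7, which encodes TCF-1 of naive and memory T cells, had 762, 964 and 917 in Ahr-KO and 985, 754 and 904 in WT libraries. Its groups overlapped and its log2 fold change was 0.00, with a 95% interval of -0.31 to 0.32 (adjusted p = 1). The sign turned to -0.03 with quantile normalisation and to -0.09 with equal library totals. Tcf7 averaged 881 in WT libraries, against 93.1 for Cd3e, and its source among the lung cells was not tested.

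The GIMAP genes encode GTPases of lymphocyte survival, and loss of Gimap5 causes the lymphopenia of the diabetes-prone BB rat. Neither of the 2 tested here passed. Gimap4 had 2180.1, 2380.2 and 1898 in Ahr-KO libraries, against 2086, 1793 and 1701 in WT libraries (log2 0.21, 95% interval -0.06 to 0.48, adjusted p = 0.29). Gimap5 had 1131, 1129 and 1057 in Ahr-KO and 1279.5, 1113 and 1190.4 in WT libraries (log2 -0.11, 95% interval -0.32 to 0.10, adjusted p = 0.48). The groups overlapped for each gene. In WT libraries the mean was 1860 for Gimap4 and 1194 for Gimap5, against 93.1 for Cd3e. Which cells carried the GIMAP RNA was not tested. Of 5 other GIMAP genes, 1 rose and 0 fell, with a median log2 fold change of 0.35. The one that rose, Gimap9, had 1996, 2349 and 1898 in Ahr-KO and 1446, 1434 and 1185 in WT libraries (log2 0.62 ± 0.12, adjusted p = 0.019). It was not past the threshold without Ahr-KO library 1 or 2 (up to 0.069) or without the trend (adjusted p = 0.059). GIMAP genes are close relatives in a cluster, and the values of all these GIMAP genes were whole multiples of the step in 6 of 6 libraries.

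To set the genes against each other within a library, the level of each, as log2(value + 1), was taken relative to the mean of Cd3d, Cd3e and Cd3g. The CD3 chains had themselves fallen, so by construction a gene with equal levels in both groups lies higher on this scale. Of 38 genes compared, 28 had overlapping groups, 7 lay higher in all 3 Ahr-KO libraries and 3 lay lower. The same ratio was not computed over all tested genes, so these counts have no background share. With 3 libraries against 3 the exact two-sided permutation test cannot give a p below 0.1, and the lowest adjusted p over the 38 was 0.38, so none of these differences passed. Cd4 and Lck differed between the groups by less than the spread between libraries. Relative to the CD3 chains Cd4 stood at 2.77 ± 0.36 in Ahr-KO and 2.75 ± 0.21 in WT libraries (mean ± SD, log2, n = 3 each), and Lck at 2.72 ± 0.26 in Ahr-KO and 2.72 ± 0.10 in WT libraries. Cd8a stood at 1.96 ± 0.35 in Ahr-KO and 2.17 ± 0.14 in WT libraries, with overlap. The 7 higher genes were Fyn, Lat, Gimap5, Tcf7, Gata3, Gimap4 and Foxp3, with differences of 0.46, 0.66, 1.03, 1.14, 1.25, 1.35 and 1.48 on the log2 scale. None of these 7 except Fyn had fallen. The 3 lower genes were Cd28, Tigit and Trat1, at -1.60, -1.41 and -0.84, and each had values of a few reads or 0 in Ahr-KO libraries.

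**Figure D3:**
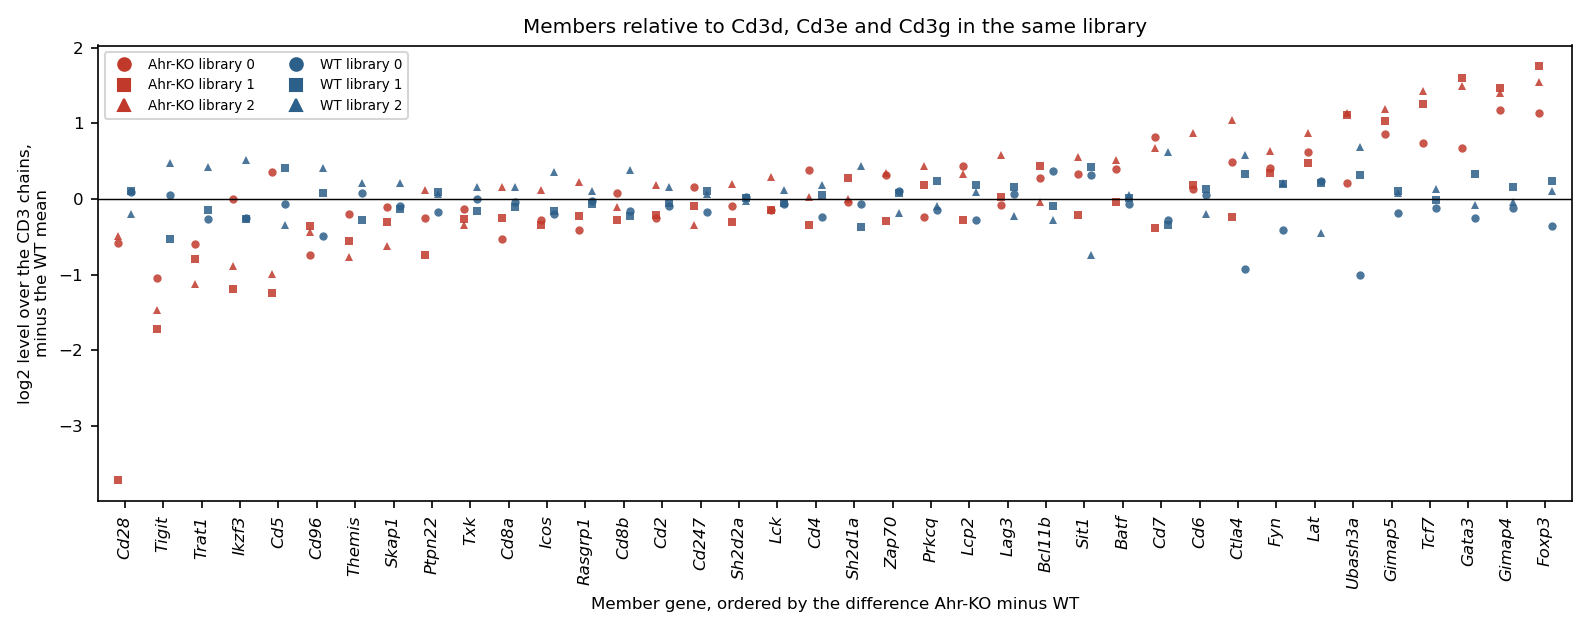
Level of each T cell gene relative to the mean of Cd3d, Cd3e and Cd3g in the same library, in log2 units and with the WT mean of each gene set to 0, Ahr-KO libraries in red left of WT libraries in blue. Cd4, Cd8a and Lck overlap between the groups, while Foxp3, Gimap4, Gata3 and Tcf7 lie higher in all 3 Ahr-KO libraries. As the CD3 chains fell, a gene with equal levels in both groups lies higher here.

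Other genes of T cell biology were read from lists that hold none of the 42. These lists, and those of other cells and tissues below, were also chosen with earlier results of these data known. Of 33 further receptor signalling genes tested, 10 fell and 1 rose (median log2 -0.25). Nfatc2, the calcium-dependent factor NFAT1, had 65.3, 54.5 and 72.3 in Ahr-KO libraries, against 214, 194 and 267 in WT libraries (log2 -1.79 ± 0.20, adjusted p = 0.0043). Ptpn7 (log2 -1.12, adjusted p = 0.016) and the adaptor Grap2 (log2 -1.55, adjusted p = 0.02) fell too. Plcg1, a phospholipase expressed in many cell types, was the one that rose, with 12587, 12612 and 15774 in Ahr-KO and 9289, 10433 and 9283 in WT libraries (log2 0.49, adjusted p = 0.039, up to 0.11 without 1 library).

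Of 14 naive and memory genes, 6 fell and 0 rose (median log2 -0.94). Cd69, a mark of recent activation and tissue residence, had 106, 60.3 and 62.8 in Ahr-KO libraries, against 301, 177 and 227 in WT libraries (log2 -1.62, adjusted p = 0.014). Ccr7, the homing receptor of naive T cells, had 79, 40.5 and 50.5 in Ahr-KO and 167, 131 and 221 in WT libraries (log2 -1.61, adjusted p = 0.017). Il7r, the receptor for IL-7 (log2 -1.50, adjusted p = 0.024), and Cd27 (log2 -1.07, adjusted p = 0.026) fell as well. Naive and resident-type markers were thus both among the genes that fell.

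Of 19 helper and effector genes tested, 9 fell and 0 rose (median log2 -0.91). Il2rb, the IL-2 and IL-15 receptor beta chain, had 579, 364 and 379 in Ahr-KO libraries, against 1177, 992 and 1108 in WT libraries (log2 -1.34 ± 0.18, adjusted p = 0.0072). Il2rg, the common cytokine receptor gamma chain (log2 -0.65, adjusted p = 0.0079), and Runx3, a factor of CD8 T and NK cells (log2 -1.77, adjusted p = 0.0092), fell, and so did Tnfrsf18, which encodes GITR (log2 -1.41, adjusted p = 0.013). Among cytokine genes, Cd40lg, the CD40 ligand of helper cells, fell, with 4.03, 1.65 and 1.36 in Ahr-KO and 18, 8.21 and 9.79 in WT libraries (log2 -1.97, adjusted p = 0.042). It passed in 1 of the 6 fits without 1 library, the one without Ahr-KO library 0 (up to 0.13), and not with limma-voom (adjusted p = 0.053). Ifng had 0 in each Ahr-KO library, against 3, 1.64 and 1.4 in WT libraries, and did not pass (adjusted p = 0.1). Like Tigit, it met the filter through its WT values alone, so only a fall could have been called. Il17a and Il21 were listed at 0 in all 6 libraries. Of 20 other T cell genes, 6 fell and 0 rose. Thy1, which fibroblasts express and which is not particular to T cells, had 56.4, 36.4 and 57.3 in Ahr-KO libraries, against 272, 280.04 and 304 in WT libraries (log2 -2.52 ± 0.22, adjusted p = 0.0021). Which cells carried the Thy1 RNA was not tested. Havcr2, which encodes TIM-3 and is found on myeloid cells too, had 26.6, 14.9 and 24.6 in Ahr-KO and 143, 118 and 149.7 in WT libraries (log2 -2.62, adjusted p = 0.0036). Cd52 (log2 -2.32, adjusted p = 0.013) and Arl4c (log2 -0.53, adjusted p = 0.014) also fell. Of 9 costimulatory and inhibitory ligands, Icoslg, the ligand of ICOS, fell (log2 -1.14, adjusted p = 0.011) and 8 did not pass. Leaving out any 1 of Ahr-KO libraries 1 and 2 and WT library 0 took the count of genes that fell over all the lists beside the 42 to between 16 and 23, against 51 with all libraries. Of the genes named from these T cell lists, Nfatc2, Il2rb, Il2rg, Runx3, Thy1, Havcr2 and Cd52 kept their call in every fit without 1 library, and each of the others lost it in at least 1.

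**Figure D4:**
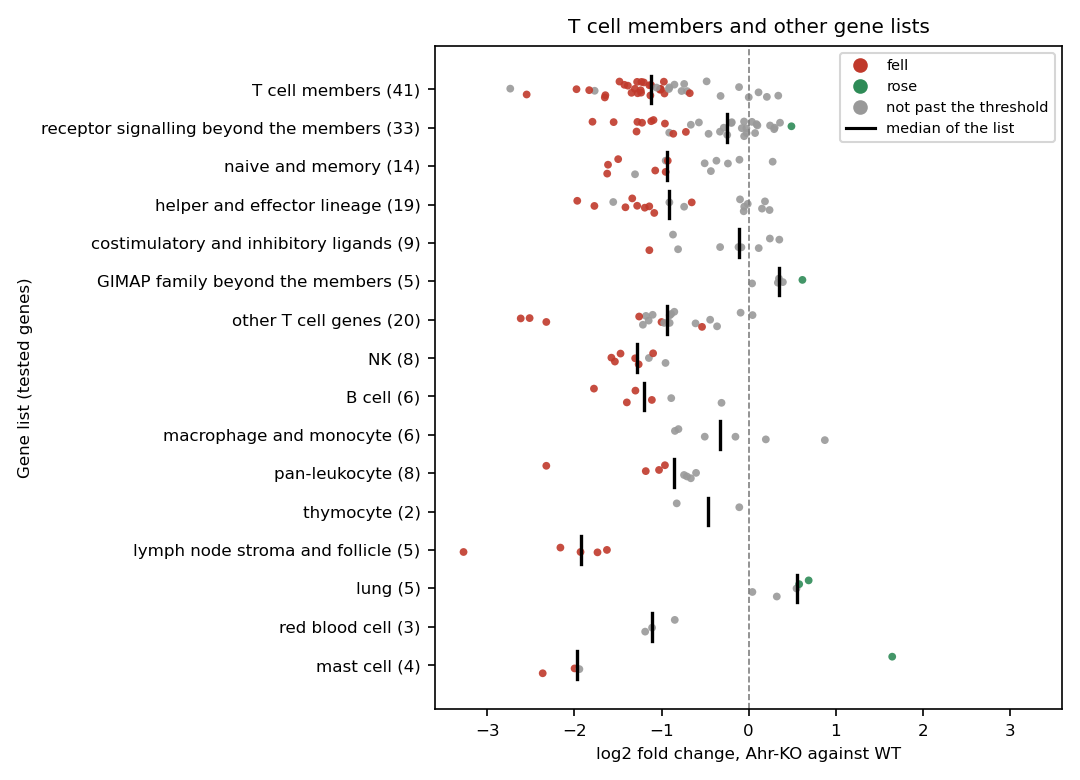
Log2 fold changes, Ahr-KO against WT, of the tested genes in each list of further T cell genes and of markers of other cells and tissues, with red for genes that fell, green for genes that rose, grey for genes that did not pass and a black bar at each list's median; the top line repeats the 41 T cell genes. The lymph node stroma and follicle genes all lie at or below -1.63.

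Markers of other lymphocytes moved with the T cell genes, and their part in the result was not tested. Of 8 NK cell genes tested, 6 fell and 0 rose (median log2 -1.28), and their summed value was 859 to 1277 in Ahr-KO libraries and 2252 to 2810.3 in WT libraries. Prf1 (perforin), Nkg7, Klrk1 (NKG2D) and Klrb1a were the 4 with the lowest p, at log2 -1.47, -1.10, -1.54 and -1.26. Cytotoxic T cells express several of these genes, and NK cells express Cd247, Cd2, Cd96, Lck, Zap70 and Txk. Of 6 B cell genes, 4 fell and 0 rose (median log2 -1.21). Their sum was 527 to 659 in Ahr-KO and 1098 to 1696 in WT libraries, and Cd22, Ms4a1 and Cd79b were among those that fell. Of 8 pan-leukocyte genes 4 fell (Coro1a, Cd52, Cd53 and Ptprc; Cd52 and Ptprc stand in T cell lists as well) and 0 rose, with a median log2 of -0.85 and a sum of 10288 to 18956 in Ahr-KO and 21586 to 24686 in WT libraries. Prf1, Nkg7, Klrk1, Cd22, Ms4a1, Coro1a and Cd52 kept their call in every fit without 1 library. Klrb1a lost it without Ahr-KO library 1 or 2 or WT library 0 (up to 0.082), Cd79b without any 1 library but WT library 2 (up to 0.11), and Cd53 and Ptprc without any 1 but Ahr-KO library 0 (up to 0.15 and 0.16).

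In the lymph node stroma and follicle list 5 of 5 genes tested fell (median log2 -1.93). Ccl21, the chemokine that draws CCR7-bearing T cells, had 2708, 1643 and 1547 in Ahr-KO libraries, against 8218, 6698 and 4622 in WT libraries (log2 -1.74, adjusted p = 0.0096). Ccl19 (log2 -2.16), the B cell chemokine Cxcl13 (log2 -3.27) and the follicle genes Fcer2 (log2 -1.63) and Cr2 (log2 -1.93) fell. Without Ahr-KO library 2 only Fcer2 passed, with Ccl21, Ccl19 and Cxcl13 at adjusted p values of 0.051, 0.053 and 0.057. Cr2 passed in 1 of the 6 fits without 1 library, the one without Ahr-KO library 0 (up to 0.13), and did not pass with quantile normalisation (adjusted p = 0.054). The sum over the list was 1681 to 2897 in Ahr-KO and 5124 to 9053 in WT libraries, and Madcam1 was at or near 0. The part of lymphoid tissue, in the lung or taken with it, in the T cell result was not tested.

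The lists left hold cells and tissue other than lymphocytes, and differences between lists were not tested. Of 6 macrophage and monocyte genes 0 fell and 0 rose (2 lower and 1 higher at an unadjusted p under 0.05, and 0 with limma-voom). Their median log2 was -0.33, with a sum of 8491 to 14029.9 in Ahr-KO and 10222 to 13370.4 in WT libraries, and Marco was listed at 0 in all 6. The absence of calls depended on Ahr-KO library 0, where Mrc1 had 6383, against 2033 and 2417 in Ahr-KO libraries 1 and 2. Without Ahr-KO library 0, Cd68 (log2 -1.14, adjusted p = 0.014 by limma) and Mrc1 (log2 -1.01, adjusted p = 0.044) passed as lower. Adgre1, Csf1r, Cd163 and Siglec1 passed in 0 of the fits without 1 library. Of 3 red blood cell genes 0 passed (2 lower at an unadjusted p under 0.05, and 0 with limma-voom), but all 3 were below 0, with a median log2 of -1.11 and a sum of 2683 to 6723 in Ahr-KO and 4743 to 15788 in WT libraries. Thymocyte genes were near 0 for Rag1, Rag2 and Ptcra, and 0 of the 2 tested passed by limma-trend, limma-voom or at an unadjusted p under 0.05 (median log2 -0.47). Of 5 lung genes Ager and Pecam1 rose and 0 fell, with a median log2 of 0.55 and a sum of 680243 to 761156 in Ahr-KO and 565696 to 590074 in WT libraries. Limma-voom called 3 higher and 0 lower. Sftpb (log2 0.55) passed with limma-voom (adjusted p = 0.018), but not with limma-trend (adjusted p = 0.054) or in any fit without 1 library. The calls of Ager and Pecam1 did not hold widely. Ager did not pass without Ahr-KO library 1 or 2 or WT library 0 or 2 (up to 0.12) or with quantile normalisation (adjusted p = 0.064). Whole steps were met in 2 of 6 libraries for Ager, and likewise for Sftpc and Sftpb, but rounding limits this check at such high values. Pecam1 passed in 1 of the 6 fits without 1 library, the one without WT library 1 (up to 0.14), and not with quantile normalisation (adjusted p = 0.091) or equal totals (adjusted p = 0.069). Of 4 mast cell genes Cpa3 and Ms4a2 fell and Kit rose (log2 -2.36, -2.00 and 1.65; list median -1.97). The sum of the list was 3155 to 3765 in Ahr-KO and 957 to 1683 in WT libraries, and most of it was Kit, which averaged 3314 ± 285 in Ahr-KO and 1073 ± 249 in WT libraries (SD, n = 3 each). Which cells carried the Kit RNA was not tested. Cpa3 and Ms4a2 did not pass without Ahr-KO library 1 or 2 or WT library 0 or 2 (up to 0.15 and 0.13) or with quantile normalisation (adjusted p = 0.057 and 0.063), and Cpa3 did not pass with limma-voom (adjusted p = 0.073).

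Within each group, many of the tested T cell genes had the same library highest or lowest. These counts were not taken over all tested genes, so they have no background share. Whether the pattern is particular to these genes was not tested. Ahr-KO library 0 was the highest of its group for 25 of the 41 tested genes and Ahr-KO library 1 the lowest for 20. WT library 0 was the highest of its group for 26 and WT library 1 the lowest for 24. Against the WT mean, the median log2 difference over the 41 genes was -0.86, -1.33 and -1.17 in Ahr-KO libraries 0, 1 and 2, and 0.20, -0.15 and 0.02 in WT libraries 0, 1 and 2.

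The promoter sequences of 33 of the 42 genes were found in RefSeq's table for the GRCr8 build, each 250 bases before to 50 after the annotated start. Those of the 6 genes whose fall held without any 1 library follow, 5′ to 3′ on the gene's own strand, with capitals for matches of 3 motifs or their reverses. GCGTG (reverse CACGC) is the core that the AHR and ARNT pair binds and that one form of the hypoxia element shares, TGTGGT (reverse ACCACA) is the core bound by RUNX factors, and CCGGAA (reverse TTCCGG) is an ETS factor core. The capitals in Cd2, Cd96 and Lck are TGTGGT or its reverse, Ptpn22 holds ACCACA and 1 CACGC, and Cd8a and Rasgrp1 hold none of the 3.
Cd2 (chr2:191412610-191412909, minus strand): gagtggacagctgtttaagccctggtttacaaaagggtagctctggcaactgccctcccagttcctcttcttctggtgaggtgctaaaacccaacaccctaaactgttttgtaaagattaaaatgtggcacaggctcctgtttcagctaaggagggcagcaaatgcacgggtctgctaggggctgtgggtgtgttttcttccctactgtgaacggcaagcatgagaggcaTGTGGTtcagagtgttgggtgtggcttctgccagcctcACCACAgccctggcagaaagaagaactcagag
Cd96 (chr11:68164676-68164975, plus strand): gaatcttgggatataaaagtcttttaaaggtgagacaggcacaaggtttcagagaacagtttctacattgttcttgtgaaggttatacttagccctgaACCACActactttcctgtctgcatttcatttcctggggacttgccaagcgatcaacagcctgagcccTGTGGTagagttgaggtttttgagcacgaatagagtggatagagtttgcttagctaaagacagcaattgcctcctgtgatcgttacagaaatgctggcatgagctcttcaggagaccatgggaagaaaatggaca
Cd8a (chr4:104923866-104924165, plus strand): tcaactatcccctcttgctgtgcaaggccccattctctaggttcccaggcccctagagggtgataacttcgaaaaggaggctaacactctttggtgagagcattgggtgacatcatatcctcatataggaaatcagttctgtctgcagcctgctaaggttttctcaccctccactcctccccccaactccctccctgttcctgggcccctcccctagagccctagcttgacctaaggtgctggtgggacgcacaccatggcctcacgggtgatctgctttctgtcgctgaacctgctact
Lck (chr5:147201218-147201517, minus strand): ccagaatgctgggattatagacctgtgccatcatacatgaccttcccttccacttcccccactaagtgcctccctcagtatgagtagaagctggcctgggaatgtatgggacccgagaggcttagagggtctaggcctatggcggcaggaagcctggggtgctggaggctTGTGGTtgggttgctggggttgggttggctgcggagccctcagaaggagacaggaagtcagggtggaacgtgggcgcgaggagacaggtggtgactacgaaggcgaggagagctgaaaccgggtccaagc
Rasgrp1 (chr3:124684030-124684329, minus strand): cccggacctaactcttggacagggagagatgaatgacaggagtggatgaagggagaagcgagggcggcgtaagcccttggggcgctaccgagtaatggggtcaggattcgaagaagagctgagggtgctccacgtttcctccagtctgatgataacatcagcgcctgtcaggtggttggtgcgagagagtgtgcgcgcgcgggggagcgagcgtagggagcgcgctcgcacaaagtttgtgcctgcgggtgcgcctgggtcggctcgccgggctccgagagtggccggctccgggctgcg
Ptpn22 (chr2:194054994-194055293, plus strand): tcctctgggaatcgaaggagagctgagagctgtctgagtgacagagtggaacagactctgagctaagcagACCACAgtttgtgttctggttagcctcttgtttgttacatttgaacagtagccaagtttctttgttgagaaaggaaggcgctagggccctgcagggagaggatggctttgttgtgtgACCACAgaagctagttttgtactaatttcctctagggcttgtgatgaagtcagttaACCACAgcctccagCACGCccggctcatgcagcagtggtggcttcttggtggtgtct

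Searched on both strands, GCGTG was in 6 of the 33 windows (18.2%), those of Cd5, Icos, Lat, Prkcq, Ptpn22 and Trat1, against 29.7% of all 33469 promoter windows in the table. TGTGGT was in 10 of 33 (30.3%), Cd2, Cd96, Lck and Ptpn22 among them, against 17.3% of all. CCGGAA was in 4 of 33 (12.1%), against 15% of all. Matches of GCGTG and TGTGGT may share bases, and each motif was counted by itself. Among the 19 windows of genes that fell, 4 held GCGTG, 6 held TGTGGT and 1 held CCGGAA, and among the 14 other windows 2, 4 and 3 did. A match describes letters in this window only.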

How the data were processed

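RNA-seq of total lung gave 6 libraries, 3 Ahr-KO and 3 WT. The table deposited by the authors holds a normalised signal, never below 0, for each gene symbol in each library. FastQC and the build rn6 are named, per the submitters' processing notes. Aligner, counter, annotation and strandedness: not given in the sources used here. In each library 96.8% to 98.0% of values above 0 were whole multiples of a common step (tolerance 0.05), taken as 1 read. The rest were fractions or, at very high values, limited by rounding. The tests planned for counts were therefore not run, and the one planned for normalised values was used.

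Columns show genotype and a number from 0 to 2, whereas sample titles count from 1, so columns were assigned to groups and numbers only name libraries. The labels do not say that samples are separate animals: p-values measure the spread between samples, which may be technical. The lowest chi-square per gene over all library pairs was 15.4, so no pair agreed within sampling noise.

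Genes reaching a value of 1 in 3 or more libraries were fitted, as log2(value + 1), with limma 3.58.1 (R 4.3.3; trend, genotype only). P-values are two-sided and Benjamini-Hochberg adjusted over all 15386 genes, with a threshold of 0.05. Code was tested on simulated data. The members and lists were chosen with earlier results of these data known. Named were all members, up to 4 genes per other list by lowest p (some of these are not reported here), and Ahr, Cyp1a1 and Ahrr; Ccdc22, Ppp1r3f, Tenm1, Plcg1, Cr2, Cd40lg, Ifng and genes at or near 0 in the other lists were named after their values were seen. Alternatives were quantile normalisation, equal library totals, no trend, robust limma, limma-voom, no filter, a stricter filter (a value of 10), a pseudocount of 0.1, a threshold of 0.10, a minimum fold of 2, the library number as a block, and leaving out libraries. There were 0 unused value columns.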

Additional observations from a re-analysis of the deposited data

How the results depend on the processing

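The 41 tested T cell genes gave 25 lower and 0 higher calls. Leaving out 1 library gave 6 to 23 lower, and leaving out both libraries numbered 2 gave 4. Over all genes, with 963 lower and 692 higher, leaving out 1 library gave 272 to 920 lower and 135 to 930 higher, and leaving out both libraries numbered 2 gave 285 lower and 268 higher. An adjusted p under 0.10 gave 1567 lower and 1286 higher, and a fold of at least 2 gave 541 lower and 135 higher. Limma without the trend gave 301 higher. Equal library totals gave 1314 lower and 449 higher, a shift of the balance toward lower calls, with the median of all genes at -0.08 against 0.01.

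By class, leaving out 1 library gave 0 to 3 of the receptor complex genes, 2 to 3 of the pan-T surface genes, 0 to 2 of the CD4 and helper genes, 1 to 2 of the CD8 genes, 0 to 1 of the regulatory and inhibitory genes, 3 to 13 of the signalling genes and 0 to 1 of the transcription factors. Without both libraries numbered 2 the counts were 0 for the receptor complex, 1 for pan-T surface, 0 for CD4 and helper, 1 for CD8, 0 for regulatory and inhibitory, 2 for signalling and 0 for transcription factors. Quantile normalisation gave 2 receptor complex, 1 CD8 and 1 regulatory and inhibitory genes. Limma without the trend gave 1 CD4 and helper, 1 CD8 and 0 transcription factors. For the regulatory and inhibitory genes, no filter, the stricter filter and the fold minimum each gave 1, and an adjusted p under 0.10 gave 4 pan-T surface genes. The genes of the other lists gave 51 lower and 5 higher: 16 to 57 lower and 1 to 4 higher without 1 library, 10 lower and 1 higher without both numbered 2, 33 lower and 2 higher without the trend, 2 higher with quantile normalisation, 3 with equal totals, 8 at 0.10 and 1 with the fold minimum.

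The labels do not say whether the library numbers pair the samples. Deviations of same-numbered libraries correlated at -0.10, 0.07 and -0.07, and with 3 libraries per group these values cannot exclude a pairing. Library 2 was the shallowest of each group. With the number as a replicate block, 565 genes were lower and 334 higher, 18 T cell genes fell, and the class counts were 2 for the receptor complex, 1 for CD8 and 0 for regulatory and inhibitory, with 3 higher in the other lists.

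Among the genes named and the values relative to the CD3 chains, direction turned for Gata3 (-0.07 to 0.30 over the fits without 1 library, below 0 without Ahr-KO 1), Tcf7 (-0.03 with quantile normalisation, -0.09 with equal totals, -0.07, -0.03 and -0.11 when Ahr-KO 1, Ahr-KO 2 or WT 1 was left out, -0.01 without both numbered 2), Sftpc (-0.00 with quantile normalisation) and Ahr (-0.01 with quantile normalisation and with equal totals, -0.06 to 0.29 over the fits without 1 library, below 0 without Ahr-KO 1). Other list genes that did not pass turned as well in fits without 1 library. Relative to Ptprc in place of the CD3 chains, Cd4 was at -0.16 and Zap70 at -0.06, and relative to the CD3 chains Cd4 was at -0.16 to 0.20 over the fits without 1 library. Causes of these moves were not tested, though each fit without a library has fewer samples. Genes of a few reads, such as Tigit, Cd5, Ctla4 and Themis, are limited by depth.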
